A study of Homo sapiens with 8 samples.

Results

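The matrix metalloproteinases (MMPs), their tissue inhibitors (TIMPs) and urokinase were followed in KYSE850, an established cell line derived from a human esophageal squamous cell carcinoma (ESCC). The group held 10 genes, which were MMP1, MMP2, MMP7, MMP9, MMP10, MMP13, MMP14, TIMP1, TIMP2 and PLAU, of 20249 named genes on the array. Its probes were those whose RefSeq accession in the scanner files led to one of these symbols, and 11 of the 42405 probes on the array other than controls did so. PLAU had 2 probes and every other gene had 1. Messenger RNA had been hybridised to 8 one-colour arrays, of which 4 carried RNA of cells transfected with a control siRNA and 4 RNA of cells transfected with siRNA against KHSRP, the gene of KH-type splicing regulatory protein. All 8 came from this line, and the labels did not say which KHSRP siRNA was on which array or whether the replicates were separate cultures. The p-values therefore measure the spread between these arrays, which may be technical in part. The comparison asked how the mRNA of these matrix-degrading enzymes and inhibitors differed once KHSRP had been silenced, and how far they varied between arrays of one group.

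MMPs are zinc-dependent endopeptidases that are made as inactive pro-enzymes and cleave collagens, laminins and other components of the extracellular matrix. TIMPs bind the active site of MMPs and block it. At the cell surface TIMP2 also bridges the membrane-bound MMP14 to pro-MMP2, through which pro-MMP2 is activated, so that TIMP2 takes part in both inhibition and activation. PLAU encodes urokinase, a serine protease that converts plasminogen to plasmin, and plasmin can in turn activate several pro-MMPs. In squamous carcinomas these proteases are studied for their part in invasion through the basement membrane.

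Levels are log2 signals relative to the 75th percentile of the array, so that a probe as bright as that percentile reads 0. They were compared only within a probe, since probes differ in brightness for reasons unrelated to the amount of mRNA. Between 45.1% and 49.4% of probes were well above background on an array, and no member spot was saturated. KHSRP mRNA, the siRNA target, averaged 6.08 ± 0.24 (SD, n = 4) on the control arrays and 2.71 ± 0.19 (SD, n = 4) after its silencing at the brighter of its probes, a fall to 9.66% of the control mean (limma adjusted p = 5.95e-05, exact permutation p = 0.0286). Squamous epithelial markers were well above background on all 8 arrays for 9 of 10 genes. Of 8 fibroblast markers 7 were at background on every array, COL1A1 being the exception, and so were all 4 endothelial markers. Of the 5 macrophage and leukocyte markers with a probe, CD68 and CD14 were well above background on all 8 arrays, PTPRC on 4, and CD163 and CSF1R on none. Summed squamous markers spanned 7.39 to 9.02 on the control arrays and 7.62 to 9.22 on the KHSRP siRNA arrays, and the summed levels of each other marker list overlapped between the groups as well. MMP10 and MMP13 were well above background on 0 of 8 arrays and were not tested. This left 9 member probes, of 8 genes, among 18761 tested probes. The probes of MMP2, MMP9 and MMP14 passed the filter through the control group alone, as 1 KHSRP siRNA array of each was not well above background.

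TIMP2 and MMP9 were called lower after KHSRP silencing, and no member was called higher. Among the 9 tested member probes 2 were called, that is, had a Benjamini-Hochberg adjusted p under 0.05 by limma, and both were lower with KHSRP siRNA. Over all tested probes 5.54% were called in either direction and 3.62% were called lower. The 2 called probes were also the only member probes whose groups did not overlap, a property that 8.69% of all tested probes had with KHSRP siRNA as the lower group. The other 7 tested probes, of MMP1, MMP2, MMP7, MMP14, TIMP1 and PLAU, were not called, and without a block their 95% intervals all included 0. The MMP9 probe had passed the filter only through the control group, in which it was higher. Its call was lost with another background correction (limma adjusted p = 0.0947), one that by itself makes log2 differences of dim probes smaller. With the scanner file replicate numbers as a block neither call held (limma adjusted p = 0.0606 for TIMP2 and 0.0723 for MMP9).

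TIMP2, the inhibitor that also takes part in pro-MMP2 activation, had the largest change of any member. At probe A_33_P3382177 its log2 level was 4.52, 5.06, 4.35 and 5.0 on control siRNA replicates 1 to 4, and 2.46, 2.83, 3.20 and 2.22 on KHSRP siRNA replicates 1 to 4. Every KHSRP siRNA array lay below every control array, with a gap of 1.15 between the nearest of them. The means were 4.73 ± 0.35 (SD, n = 4) and 2.68 ± 0.43 (SD, n = 4), so that 24.1% of the control level remained (log2 fold change -2.05, SE 0.25, 95% interval -2.62 to -1.48, limma adjusted p = 0.00353). The exact permutation test gave p = 0.0286 (two-sided), the smallest p that 4 arrays against 4 can give. In bulk RNA, fewer cells with TIMP2 mRNA and less of it per cell cannot be told apart. TIMP2 had the 24th lowest log2 fold change of all 18761 tested probes. The fall was -2.14 within the slide that held replicates 1 and 2 of both groups and -1.96 within the slide that held replicates 3 and 4. Its nearest tested neighbours along chromosome 17 were not called, with log2 fold changes of 0.33 for CYTH1 (limma adjusted p = 0.309) on one side and 0.27 for LGALS3BP (limma adjusted p = 0.37) on the other.

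MMP9, or gelatinase B, cleaves denatured collagen and basement membrane collagen IV. At probe A_23_P40174 its log2 level was -1.32, -1.63, -1.05 and -1.68 on control siRNA replicates 1 to 4, and -2.50, -2.31, -2.71 and -2.79 on KHSRP siRNA replicates 1 to 4. The groups did not overlap, and the nearest arrays were 0.63 apart. The means of -1.42 ± 0.29 (SD, n = 4) and -2.58 ± 0.22 (SD, n = 4) corresponded to 44.8% of the control level (log2 fold change -1.16, SE 0.18, 95% interval -1.56 to -0.75, limma adjusted p = 0.00897). The probe was printed in 10 spots per array and was dim. Before scaling its signal was between 30.6 and 47.6 on the control arrays and between 12.7 and 22.3 on the KHSRP siRNA arrays, and on KHSRP siRNA replicate 4 only a share of 0.3 of its spots were well above background. Normexp background correction started instead from the median spot signal and the local background, and added an offset of 50. With it the log2 fold change was -0.29 and the call was lost (limma adjusted p = 0.0947). Added to signals this dim, such an offset makes a log2 difference smaller by itself. The smaller difference therefore does not show whether the fall holds. The same applies to the normexp values of the other dim probes below. As the probe had entered the test through the group in which it was higher, its value without any filter on dim probes is also given, and there it was called at a limma adjusted p of 0.0438. Within slides the log2 difference was -0.93 and -1.38.

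**Figure D1:**
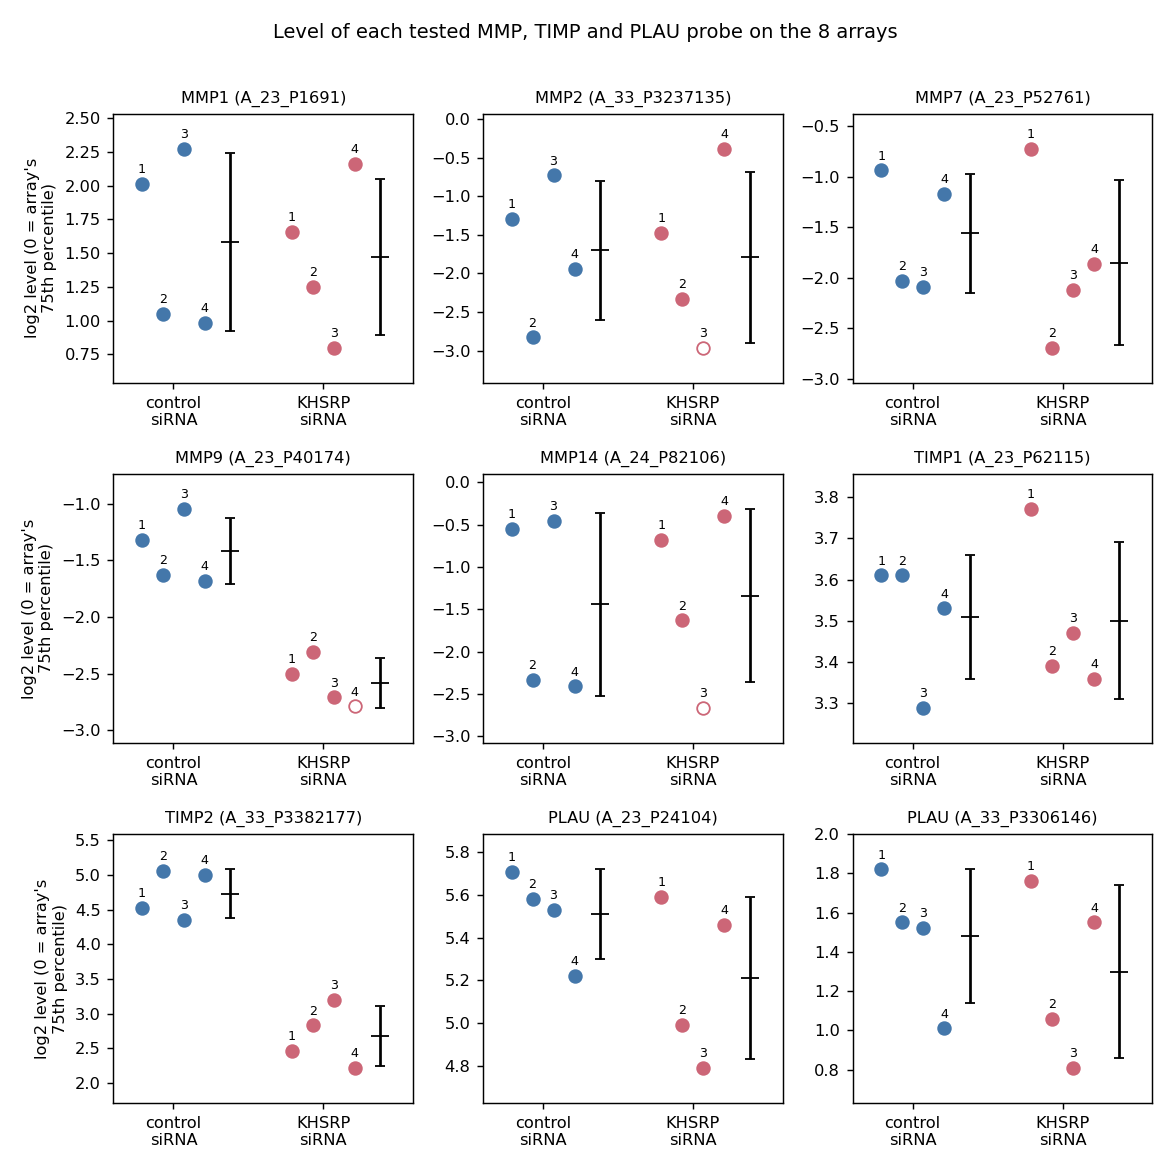
Log2 level relative to the array's 75th percentile (vertical axis of each panel, on its own scale) of the 9 tested member probes on 4 control siRNA arrays (blue) and 4 KHSRP siRNA arrays (red). Digits are the replicate numbers of the scanner files, open circles mark arrays on which the probe was not well above background, and bars show the mean ± SD. The KHSRP siRNA arrays lie below all control arrays for TIMP2, with a gap of 1.15, and for MMP9, with a gap of 0.63, and overlap them in the other 7 panels.

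TIMP1, the other inhibitor of the group, was the most even of the tested members between arrays of a group. Its log2 level at probe A_23_P62115 was 3.61, 3.61, 3.29 and 3.53 on control siRNA replicates 1 to 4, and 3.77, 3.39, 3.47 and 3.36 on KHSRP siRNA replicates 1 to 4. On KHSRP siRNA replicate 2 its 2 spots were apart, at signals of 865 and 1540, so that the value of that array is less certain. The group means were 3.51 ± 0.15 (SD, n = 4) and 3.5 ± 0.19 (SD, n = 4), and the 95% interval of the difference by limma allowed between 0.80 and 1.23 times the control level (log2 fold change -0.01, SE 0.14). Its sign turned under quantile normalization and under scaling to detected probes, by which it was 0.02 and 0.01. A difference of the size seen for TIMP2 therefore lay outside the interval for TIMP1.

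PLAU was measured by a pair of probes. Probe A_23_P24104, printed in 10 spots and named for NM_002658, read 5.71, 5.58, 5.53 and 5.22 on control siRNA replicates 1 to 4, and 5.59, 4.99, 4.79 and 5.46 on KHSRP siRNA replicates 1 to 4. The log2 fold change was -0.30 (SE 0.20, 95% interval -0.77 to 0.16, limma adjusted p = 0.49). The groups overlapped, as KHSRP siRNA replicates 1 and 4 lay among the control arrays. With the replicate number of the series matrix as a block the interval was -0.57 to -0.03 and excluded 0, although the probe was not called (limma adjusted p = 0.0872), and the 4 pairs by that number differed by -0.12, -0.59, -0.07 and -0.43. With the numbers of the scanner files the pairs differed by -0.12, -0.59, -0.75 and 0.24. Probe A_33_P3306146, a single spot named for NM_001145031, gave 1.82, 1.55, 1.52 and 1.01 on the control arrays and 1.76, 1.06, 0.81 and 1.55 on the KHSRP siRNA arrays in the same order. Its log2 fold change was -0.18 (SE 0.25, 95% interval -0.75 to 0.39, limma adjusted p = 0.789). The deviations of both probes from their group means ran together over the 8 arrays (r = 0.99, a description over arrays that share the same RNA).

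The remaining MMPs varied more between arrays of one group than between the groups. MMP1, the interstitial collagenase, had log2 levels of 2.01, 1.05, 2.27 and 0.98 on control siRNA replicates 1 to 4, and 1.66, 1.25, 0.80 and 2.16 on KHSRP siRNA replicates 1 to 4. Its highest control array was 2.44 times its lowest, and the highest KHSRP siRNA array 2.56 times the lowest, while the difference between the groups was -0.11 (SE 0.38, 95% interval -0.98 to 0.75, limma adjusted p = 0.928). Its 10 spots differed little within an array, with an SD of 0.06 to 0.10.

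MMP14, the membrane-bound activator of pro-MMP2, showed a wider spread still. On control siRNA replicates 1 to 4 its log2 level was -0.55, -2.33, -0.46 and -2.41, and on KHSRP siRNA replicates 1 to 4 it was -0.68, -1.63, -2.66 and -0.40. Control replicates 1 and 3 were thus high and control replicates 2 and 4 low, a range of 3.86-fold, and the KHSRP siRNA arrays spanned 4.79-fold. The difference between the groups was 0.10 (SE 0.63, 95% interval -1.34 to 1.53, limma adjusted p = 0.966). The probe was not well above background on KHSRP siRNA replicate 3.

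MMP2, or gelatinase A, behaved much like MMP14. Its log2 level was -1.29, -2.83, -0.73 and -1.94 on control siRNA replicates 1 to 4 and -1.47, -2.33, -2.96 and -0.39 on KHSRP siRNA replicates 1 to 4. The difference between the groups was -0.09 (SE 0.61, 95% interval -1.47 to 1.30, limma adjusted p = 0.968). On control siRNA replicate 4 its 2 spots were far apart, at signals of 9.24 and 70.2, so that the value of that array is uncertain, and on KHSRP siRNA replicate 3 the probe was not well above background. For MMP1, MMP2 and MMP14 the sign of the difference turned when some single arrays were left out.

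MMP7, or matrilysin, a small MMP that is made mostly by epithelial cells, followed another order. Its log2 level was -0.94, -2.03, -2.09 and -1.17 on control siRNA replicates 1 to 4, and -0.73, -2.69, -2.12 and -1.86 on KHSRP siRNA replicates 1 to 4. Replicate 1 was the highest array in both groups. The difference was -0.29 (SE 0.43, 95% interval -1.28 to 0.69, limma adjusted p = 0.806). Without a block, a change of the size seen for MMP9 lay outside the interval of MMP1 in either direction and outside that of MMP7 as a rise. The intervals of MMP2 and MMP14 included it in both directions. With the series matrix number as a block these were -0.72 to 0.55 for MMP2 and -0.31 to 0.50 for MMP14 and did not include it. With the scanner file number they were -1.68 to 1.51 and -1.67 to 1.86 and did. The scanner file block gave -1.23 to 1.01 for MMP1, which included such a change as a fall. For MMP7 the interval was -0.86 to 0.28 by the series matrix and -0.82 to 0.23 by the scanner files. Neither of these included it.

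**Figure D2:**
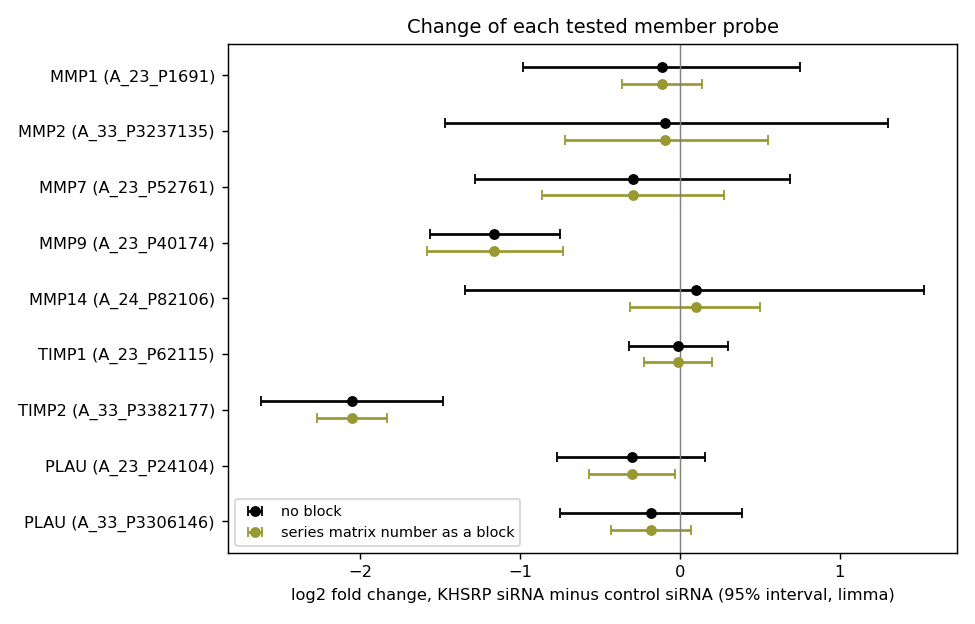
Log2 fold change of each tested member probe, KHSRP siRNA minus control siRNA (horizontal axis), with its 95% interval from limma, without a block (black) and with the replicate number of the series matrix as a block (olive). TIMP2 at -2.05 and MMP9 at -1.16 lie away from 0 in both fits, the intervals of MMP1, MMP2 and MMP14 are narrower with the block, and that of PLAU probe A_23_P24104 excludes 0 only with it.

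MMP10 (stromelysin 2) and MMP13 (collagenase 3) had signals of 2.15 to 3.82 and 2.13 to 4.11 before scaling. These were under the dimmest signals of probes well above background, which lay between 4.95 and 6.56 depending on the array, so that no fold is given for either gene. On chromosome 11 the annotation of GRCh38.p14 lists a run of MMP genes in the order MMP7, MMP20, MMP27, MMP8, MMP10, MMP1, MMP3, MMP12 and MMP13. Within this run MMP7 and MMP1 passed the filter on dim probes and the other genes did not, although each had a probe.

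The spread between arrays set the members apart from each other. The SD between arrays of a group, pooled over the groups, was 1.05 for MMP14, 1.01 for MMP2, 0.71 for MMP7 and 0.62 for MMP1. Beside tested probes within 0.5 log2 units of the same level, these SDs stood at the percentiles 96.6, 96.7, 90.0 and 91.9 in that order. TIMP2 had a pooled SD of 0.39 (percentile 82.8) and the PLAU probes 0.31 and 0.39 (percentiles 76.8 and 78.3). MMP9, at 0.26 (percentile 28.4), and TIMP1, at 0.17 (percentile 35.9), were below the median of probes of like level. The MMP9 level averaged 7 to 10 spots per array and that of TIMP1 2. Probes of like level were not matched for the number of spots, which limits this comparison. Over all tested probes the median was 0.26.

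**Figure D3:**
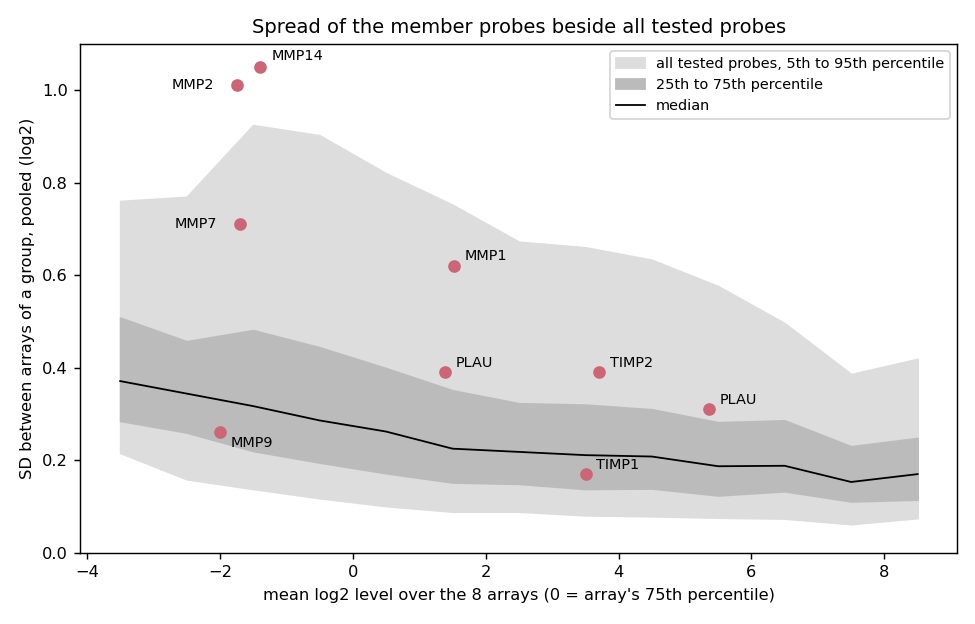
Pooled SD between arrays of a group (log2, vertical axis) against the mean log2 level over the 8 arrays (horizontal axis) for the 9 tested member probes (red), with the median and the percentile ranges of all 18761 tested probes in bins of 1 log2 unit (grey). MMP14 and MMP2 lie above the 95th percentile at their level, whereas MMP9 and TIMP1 lie below the median.

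The same arrays were high for several members. MMP1, MMP2 and MMP14 were all above their group means on control siRNA replicates 1 and 3 and KHSRP siRNA replicates 1 and 4, and below them on the other four arrays. TIMP2 was above its group mean on exactly those other four. As a description over 8 arrays, the deviations from the group means correlated at r = 0.98 between MMP1 and MMP14, 0.93 between MMP1 and MMP2, and 0.91 between MMP2 and MMP14. Those of TIMP2 ran at r = -0.98 against MMP1, -0.98 against MMP14 and -0.96 against MMP2. The brighter PLAU probe went with MMP14 at r = 0.79 and against TIMP2 at r = -0.78. MMP7, MMP9 and TIMP1 followed this order less closely, with r between -0.41 and 0.52 against MMP1, MMP14 and TIMP2. The arrays share this order far beyond the members, as one component that separated the same arrays held 65.1% of the variance of deviations over all tested probes, so that these correlations are not particular to the MMPs. What differed between the arrays was not given in the labels, and its part in the members' values was not tested.

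The siRNA difference was therefore also read between arrays on the same side of this order. For TIMP2 it was -2.10 among control replicates 1 and 3 and KHSRP siRNA replicates 1 and 4, and -2.01 among the others. For MMP9 the same differences were -1.46 and -0.86, and for the brighter PLAU probe they were -0.09 and -0.51. MMP14 gave -0.03 and 0.22, and MMP1 gave -0.23 and 0.01. MMP7 differed by 0.22 on one side and by -0.81 on the other. These values rest on 2 arrays of each group, were chosen after seeing the data, and carry no test.

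The numbering of the arrays bears on a paired fit. In the series matrix the columns of KHSRP siRNA replicates 3 and 4 held the values of each other's scanner file, and which numbering is right is not settled. With the numbers of the series matrix as a block, the difference of TIMP2 was -2.05 with SE 0.09 (limma adjusted p = 0.000673) and that of MMP9 -1.16 with SE 0.17 (limma adjusted p = 0.00738), and no other member was called, while 30.1% of all tested probes were. With the numbers of the scanner files as a block, 0.832% of tested probes were called and no member was, at a limma adjusted p of 0.0606 for TIMP2 and 0.0723 for MMP9. At an unadjusted p under 0.05 and without a block 2 member probes passed, which were those of TIMP2 and MMP9, and 19.6% of all tested probes did.

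**Figure D4:**
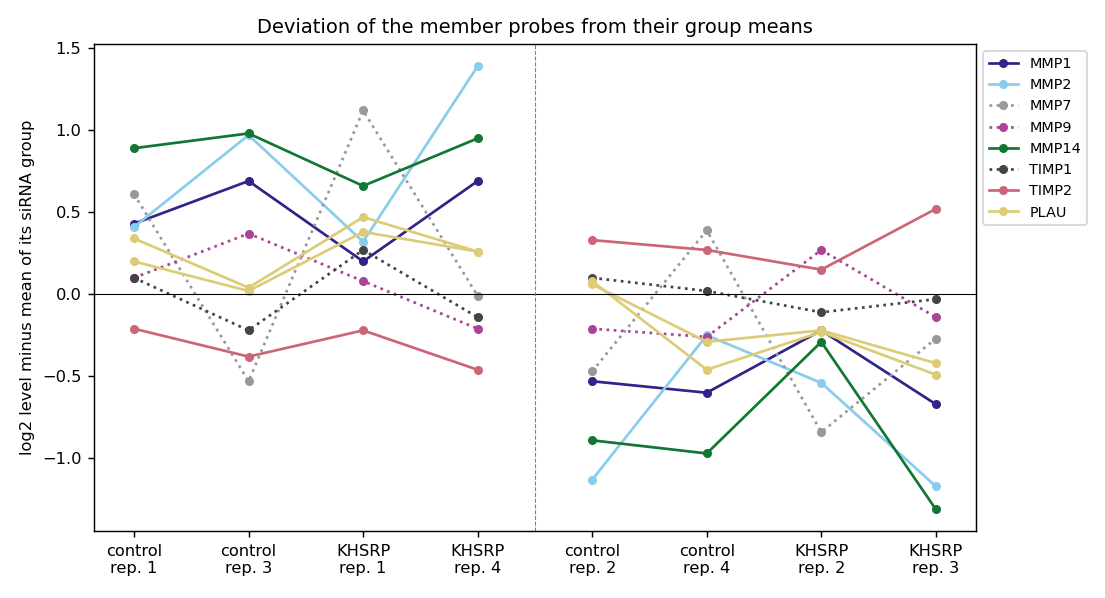
Log2 level minus the mean of the array's own siRNA group (vertical axis) for the 9 tested member probes on the 8 arrays, in an order that sets control replicates 1 and 3 and KHSRP siRNA replicates 1 and 4 to the left of the dashed line. Lines join the values of 1 probe and imply no sequence of arrays. MMP1, MMP2 and MMP14 lie above 0 on the left and below it on the right, and TIMP2 the other way round.

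Upstream sequences are shown for members on either side of this pattern, MMP14 and PLAU from the probes that shared it and TIMP1 and MMP7 from those that followed it less closely. Windows of 250 bases before and 50 bases after a gene's start, from RefSeq on GRCh38.p14, matched 5 of the 10 symbols. The 140 bases before the start are printed 5′ to 3′ on the strand of the gene, for PLAU those of the downstream one of its listed starts. Capitals mark matches, on either strand, to the AP-1 site TGAGTCA, its variant TGAGTAA, the TATA box TATAAA and the GC box GGGCGG.
MMP14, chr14:22836445-22836584, plus strand: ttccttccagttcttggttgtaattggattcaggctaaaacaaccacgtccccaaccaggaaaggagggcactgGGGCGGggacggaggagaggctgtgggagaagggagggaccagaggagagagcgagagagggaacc
PLAU, chr10:73910992-73911131, plus strand: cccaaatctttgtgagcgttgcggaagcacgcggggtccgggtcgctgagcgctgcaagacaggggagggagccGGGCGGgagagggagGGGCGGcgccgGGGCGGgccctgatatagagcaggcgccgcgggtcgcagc
TIMP1, chrX:47582296-47582435, plus strand: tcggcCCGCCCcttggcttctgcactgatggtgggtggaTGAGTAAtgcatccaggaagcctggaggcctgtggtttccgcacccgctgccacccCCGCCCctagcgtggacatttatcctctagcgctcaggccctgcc
MMP7, chr11:102530748-102530887, minus strand: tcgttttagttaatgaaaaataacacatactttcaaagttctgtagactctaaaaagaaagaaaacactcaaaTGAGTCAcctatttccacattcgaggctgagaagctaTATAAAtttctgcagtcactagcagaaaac

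The MMP7 window held an AP-1 match that begins 67 bases before the start and a TATA match, neither of which was in the windows of MMP14, PLAU or TIMP1. The window of MMP10, which is not printed, also held a TATA match and no AP-1 match. MMP14 had 1 GC box and PLAU 3 within the bases shown, and TIMP1 had the AP-1 variant and 2 GC boxes. At the upstream PLAU start, which is not printed, no match to any of these motifs was found. Among all 35116 promoter windows 4.95% held the AP-1 site, 2.57% the variant, 12% the TATA box and 45.0% the GC box. The AP-1 letters and the variant do not overlap each other. These matches are a description of the letters and say nothing of which factor was bound.

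By the likeness of their deviations over the 8 arrays, the probes of F8A1, SUSD4, ZSCAN18 and VMAC were among the closest to MMP1 (r = 0.995 to 0.997). Among those closest to MMP14 were ASPSCR1, NOTCH2NLA, CIDEC and LINC00930 (r = 0.993 to 0.995), and the closest to MMP2 were ACOT9, ZNF234, PERP, SOD2 and OSBPL2 (r = 0.989 to 0.991). None of these genes was called. The probes nearest to TIMP2 were KDM3B, GINS2, FHOD1, MFAP3L and TIMM21 (r = 0.993 to 0.997), also not called, so that they shared its order among arrays and not its fall. For MMP9 the closest were SBDS, POLR3B, INIP, GALK2 and PDCD5 (r = 0.942 to 0.971), of which SBDS was also called lower, at -0.95 (limma adjusted p = 0.00414). MMP7 was nearest to SEC14L1P1, CDIP1, PFKL, RHOBTB1 and PPM1A (r = 0.958 to 0.979), of which RHOBTB1 was called higher, at 0.86 (limma adjusted p = 0.0187). Nothing is implied on shared function.

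Among related genes only HSPG2 passed the test. Calls by limma without a block are to be read against the 5.54% of all tested probes that were called. The methods' t-test called 1081 of the 18761 tested probes. Counts at an unadjusted p under 0.05 are to be read against the 19.6% of all tested probes that reached it. Calls with the series matrix number as a block stand against 30.1% of all probes, and with the scanner file number as a block no gene of any of the 7 lists was called. Of 16 other MMPs 7 were tested and 0 were called by limma, against 3 at an unadjusted p under 0.05 and 0 by the methods' t-test. Their median log2 fold change was 0.48, beside 0.012 over all tested probes. The largest were MMP11 (stromelysin 3), at 1.40 ± 0.44 (SE, n = 4 per group) with a limma adjusted p of 0.116, MMP25, a membrane-anchored MMP, at 0.81 ± 0.29 (SE) with 0.154, and MMP28 (epilysin), at 0.73 ± 0.35 (SE) with 0.307. MMP11 read -3.41, -2.71, -3.72 and -1.87 on the control arrays and -1.88, -1.06, -0.93 and -2.24 on the KHSRP siRNA arrays, so that control replicate 4 overlapped the other group. With the series matrix number as a block MMP11, MMP15, MMP17, MMP25 and MMP28 were called higher, which makes 5 of 7, and with the scanner file number MMP11 had a limma adjusted p of 0.274. The probes of MMP11, MMP25 and MMP28 were dim. With normexp the differences were 0.42 for MMP11, 0.32 for MMP25 and 0.29 for MMP28, and the median of the list was 0.29. MMP15 and MMP17 were brighter, at 0.38 and 0.48 in the main fit and at 0.32 and 0.28 with normexp.

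None of the other metalloproteinase inhibitors was called. Of 6 tested 0 passed by limma (0 at an unadjusted p under 0.05, 0 by the methods' t-test), and their median was 0.14. TIMP3, which binds to the matrix, had log2 levels of -1.04, -2.08, -0.66 and -2.47 on the control arrays and 0.33, -0.80, -1.51 and 0.57 on the KHSRP siRNA arrays. Its mean difference was 1.21 ± 0.55 (SE), with a limma adjusted p of 0.275, and that of TIMP4 was 0.53 ± 0.69 (SE), with 0.775. Both were called higher with the series matrix number as a block (limma adjusted p = 0.00152 and 0.0127), and neither with the scanner file number (0.425 and 0.832). With normexp they were at 0.63 and 0.27. PCOLCE, which was counted in this list although it promotes the processing of procollagen, was at 0.20 (limma adjusted p = 0.547).

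In the plasminogen activation system 11 of 17 genes were tested and 0 called by limma, with 1 at an unadjusted p under 0.05, 0 by the methods' t-test, and a median of -0.05. That gene was PLAUR, the urokinase receptor, with log2 levels of 2.11, 1.92, 2.01 and 1.76 on the control arrays and 2.84, 2.42, 2.23 and 2.52 on the KHSRP siRNA arrays. The groups did not overlap, and the difference was 0.55 ± 0.15 (SE, limma adjusted p = 0.0786). SERPINB5 (maspin) was at 0.53 (limma adjusted p = 0.412) and ST14 (matriptase) at 0.32 (limma adjusted p = 0.572). With the series matrix number as a block these 3 and S100A10, at -0.30, were called, 4 of 11. With the scanner file number PLAUR had a limma adjusted p of 0.157. PLG, which encodes plasminogen itself, was not tested.

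The list of ADAM proteases, which also held ADAMTS1, had 6 tested genes and 0 calls by limma. There was 1 at an unadjusted p under 0.05 and 1 by the methods' t-test, and the median was 0.11. The largest differences were -0.98 for ADAMTS1 (limma adjusted p = 0.604), 0.72 for ADAM19 (0.529) and 0.44 for ADAM8 (0.0616), and these 3 were called with the series matrix number as a block. With normexp ADAMTS1 was at -0.30. Of 14 tested activators and cofactors 0 were called by limma, with 3 at an unadjusted p under 0.05, 0 by the methods' t-test, and a median of 0.07. PCSK6, a proprotein convertase, was at 0.77 (limma adjusted p = 0.20), HPSE (heparanase) at -0.61 (0.0616), and CLDN1 (claudin 1) at -0.46 (0.906). PCSK6 and HPSE were among 4 called with that block. With normexp these 3 were at 0.25, -0.35 and -0.16.

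Of 17 tested matrix and basement membrane substrates 1 was called, beside 5.54% of all tested probes, and the median of the list was 0.18. HSPG2, which encodes the basement membrane proteoglycan perlecan, read 3.74, 3.75, 3.57 and 3.5 on the control arrays and 4.42, 4.38, 4.30 and 4.35 on the KHSRP siRNA arrays. It rose by 0.72 ± 0.11 (SE, limma adjusted p = 0.00729), or 1.65-fold, with no overlap, and kept its call when any 1 array was left out. The call was lost under median scaling, without the filter on dim probes, and with the scanner file number as a block (limma adjusted p = 0.068). With the series matrix number as a block 8 of the 17 were called. Of 20 tested transcription factors that act at MMP promoters 0 were called by limma, with 1 at an unadjusted p under 0.05, 0 by the methods' t-test, and a median of 0.07. FOSB, a partner in AP-1, was at 0.96 (limma adjusted p = 0.169), ETS2 at -0.52 (0.384) and RUNX1 at 0.36 (0.685), and with that block these 3 were among 5 called. The 4 other tested probes of RUNX1 were at 0.99, -0.05, 0.26 and 0.39, and 0 of them were called without a block. With normexp FOSB was at 0.42 and ETS2 at -0.25.

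**Figure D5:**
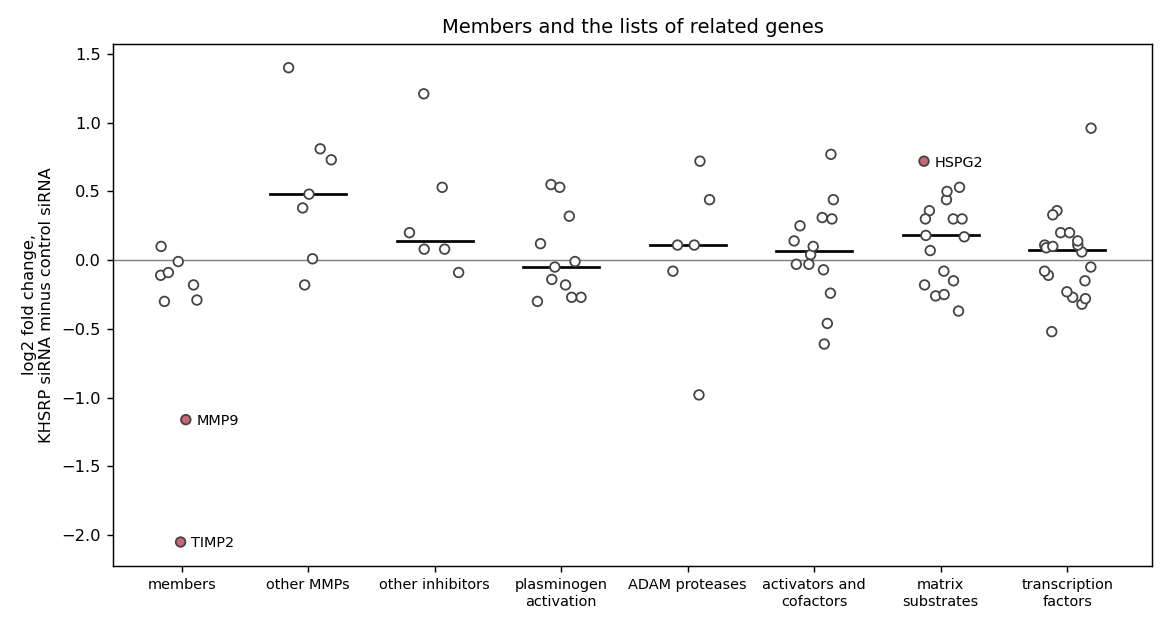
Log2 fold change, KHSRP siRNA minus control siRNA (vertical axis), of the tested member probes and of the tested genes of 7 related lists (horizontal axis, points spread sideways at random for legibility). Filled points were called by limma, and bars are medians of the lists. TIMP2 at -2.05, MMP9 at -1.16 and HSPG2 at 0.72 are the called points.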

How the data were processed

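Per the file headers, the authors scanned the arrays and extracted spots with Agilent Feature Extraction 11.5.1.1 (the submitters' processing notes give 12.6), and the deposited processed signal is a linear intensity, background-subtracted within the array and not scaled between arrays. The deposited series matrix of the authors holds log2 values, for which the methods name GeneSpring, and it served as an alternative.

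Control spots and outlier-marked spots were left out. The log2 signals of a probe's spots were averaged, and the 75th percentile of the array was subtracted. Tested probes had a share of 0.5 or more of spots well above background on every array of a group. Symbols came from RefSeq accessions (27241 of 42405 probes). The probe of highest mean level stood for a gene in the lists. Groups, taken from the labels, entered limma's lmFit and eBayes (version 3.58.1, R 4.3.3, two-sided) with Benjamini-Hochberg adjustment over 18761 probes. The fit was also run on simulated data with independent noise at each probe, which lacked the order that the real arrays share. Other steps used Python 3.11.15. Single levels were compared by an exact permutation test.

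Members and lists were chosen with earlier results of these data known. Every member probe is named, and in each list every called gene up to 5, or else the 3 genes with the largest absolute change, and the 5 probes most like a member, of which some are not reported here. Alternatives covered scaling, background correction, the series matrix values, the filter, slide and replicate blocks, array weights, a variance trend, the methods' t-test, the mean of a gene's probes and leaving out each array. Deviations of same-numbered arrays correlated at 0.52, 0.43, 0.83 and 0.84 by the numbers of the series matrix, and at 0.52, 0.43, -0.67 and -0.64 by those of the scanner files. Calls with a block are given by both numberings. The number of arrays limits the precision.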

Additional observations from a re-analysis of the deposited data

How the results depend on the processing

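Both calls among the members held in 19 of the 21 other fits that kept single probes, which covered the scalings, the filters, the series matrix values, the slide block, the replicate block by the series matrix, the variance trend, array weights, the methods' t-test and leaving out each array. These fits reuse the same arrays and are not independent support. The series matrix values matched the scanner files apart from columns exchanged within a group, so their fit without a block could hardly differ. Except where the filter was changed, the fits kept the filter that the MMP9 probe had passed only through the control group. With normexp 1 member probe was called, and with the replicate block by the scanner file numbers 0 were, as given above for TIMP2 and MMP9; why the call of TIMP2 was lost there was not tested. When single arrays were left out, TIMP2 ranged from -2.23 to -1.90 (highest limma adjusted p 0.017) and MMP9 from -1.25 to -1.03 (highest limma adjusted p 0.0371). KHSRP was called in all 21. Signs turned only for uncalled members near 0. MMP2 was 0.03 with normexp, MMP14 was -0.01 with array weights, and TIMP1 was 0.02 with quantile normalization and 0.01 with scaling to detected probes. Leaving out single arrays gave ranges of -0.34 to 0.12 for MMP1, -0.55 to 0.30 for MMP2, -0.23 to 0.53 for MMP14 and -0.10 to 0.03 for TIMP1. Without a change of sign they gave -0.67 to -0.01 for MMP7, -0.43 to -0.16 for PLAU probe A_23_P24104 and -0.33 to -0.02 for PLAU probe A_33_P3306146, and with normexp MMP7 was at -0.04.

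In the lists, the replicate block by the series matrix called 5 other MMPs, 2 inhibitors, 4 genes of plasminogen activation, 3 ADAM proteases, 4 activators, 8 substrates and 5 transcription factors, and the block by the scanner files called 0 in each list. For the ADAM proteases scaling to detected probes, array weights and the methods' t-test each called 1, and for the activators the slide block and array weights each called 1. For the substrates 0 were called with median scaling, without the filter and with the replicate block by the scanner files. Leaving out single arrays gave 0 to 1 called transcription factors, the 1 without KHSRP siRNA replicate 3. The number of called probes over the whole array ranged from 156 with the scanner file block to 5644 with the series matrix block, against 1039 without a block. It was 570 with median scaling, 319 without the filter, and 489 to 766 when single arrays were left out. With all tested probes of a gene averaged, 2 member genes were called as before, and PLAU was at -0.24.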
